A study of Sardinops sagax and Scomber japonicus with 20 samples.

Results

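Solute carriers are membrane proteins that move sugars, amino acids, bile acids, metals, vitamins and ions across membranes without a transport ATPase of their own. In hepatocytes they take up nutrients and bile acids from blood at the sinusoidal face and pass glucose, metals and organic ions back out. Families are numbered by sequence, so members of a family often share a kind of substrate. The carriers were taken as every row of the 2 tables whose human symbol begins with SLC and a digit or with SLCO, leaving out the mitochondrial SLC25A family. This gave 308 of 15907 rows, 115 of 6716 in the sardine and 193 of 9191 in the mackerel. They carried 94 and 138 symbols, of which 57 stood in both tables. The rule goes by name, so it also took in carriers of inner membranes (SLC35, SLC30A5, SLC30A7, SLC37A4, SLC33A1) and genes named after a carrier that are not carriers themselves (SLC7A6OS, SLC4A1AP).

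The study sequenced liver RNA of adult males of 2 marine fish, the chub mackerel (Scomber japonicus) and the Pacific sardine (Sardinops sagax). Per species 5 fish were exposed to 17α-ethynylestradiol (EE2), an estrogen drug used in oral contraceptives, at 12.5 pM for 5 h, and 5 unexposed fish were the controls. All came from a bait dealer and were held in flowing seawater at about 17 °C. Neither table holds values per fish, and neither records which group is the numerator of its fold change, so values are given by side, positive or negative, and none is tied to exposure.

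Rows hold a mean normalized count (reads divided by a size factor for library depth, averaged over libraries), a log2 fold change with its standard error (SE) and an adjusted p. A row is called when that adjusted p, from the authors' DESeq2 test over the whole table, is under 0.05. Because the means are weighted sums of whole numbers, the reads behind them could be recovered. In mackerel 1 number per side accounted for each mean, so no spread between fish could be seen there. In sardine 5 numbers stood behind the positive side and 1 behind the negative side, for rows with a mean of at most 10. That single number counted as much in the mean as 5 libraries, so that at equal levels 80.3% of a row's reads would be positive-side reads. The 5 positive-side numbers are called libraries here, and none could be tied to a fish. Their reads are printed before scaling, and the weight of 1 read rose from 0.0820 in the first library to 0.142 in the last. Where 1 number stands for a side, the spread between fish on that side cannot be seen in it. The adjusted p of the calls is therefore not read here as a measure of that spread, on the negative side in sardine and on either side in mackerel. For a row with no read on one side, the fold was computed as if that side held 3 counts, and is given as a bound ("at least"). The reads of the other side enter as counted, so the bound leaves out their counting error and is no test. Intervals cover counting error only, and floors only that of the side at 0. Neither covers the spread between fish. Since PCR copies are not independent molecules, they may understate the counting error too.

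Marker genes of the liver were present in both species, and the sardine sides differed in them. Of 30 sardine rows of hepatocyte markers 27 were called positive and 0 negative in the authors' deposited table, while of 33 rows of striated muscle markers 1 was called positive and 29 negative. Summed over the muscle rows the level after scaling was 21.4 on the positive side against 8711 on the negative. Of the 7 endothelial and stellate rows 6 were called negative, of the 6 erythrocyte rows 4, and of the 3 leukocyte rows 2, with 0 positive in each. In mackerel 5 of 36 hepatocyte rows were called positive and 11 negative, and the muscle rows held 27 positive-side and 41 negative-side reads. Its 5 endothelial and stellate rows held 9 positive-side and 32 negative-side reads, and 3 were called negative. Of the 4 erythrocyte rows 1 was called negative, and of the 6 leukocyte rows 1, with 0 positive in each of these 3 lists. The part of these differences in the carrier results was not tested. In bulk liver, fewer cells of a type and less RNA per cell cannot be told apart.

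In sardine liver more carriers were called positive than negative, which also held over all sardine rows. The positive share of the carriers was near that of all rows, and their negative share was lower. The table gives 113 carrier rows an adjusted p; 37 were called positive and 9 negative in the authors' deposited table, and 67 were not called. Over all sardine rows 30.5% were called positive and 16.1% negative, 46.5% in all, so the carriers' 40.7% was a little under the background. The positive calls came mainly from rows with no negative-side read: 32 of the 37 had 0 there, and 21 of those had a bound above 1-fold. Of the 9 negative calls 6 had 0 positive-side reads. Over all sardine rows 419 of the 2010 positive calls and 773 of the 1061 negative calls had reads on both sides. The rest had 0 on a side, so positive calls rested mainly on such rows in the whole table too. Of the 36 carrier rows with reads on both sides 8 were called, 5 positive and 3 negative. The background of such rows was 13.2% positive and 24.4% negative. The median log2 fold change of the carriers was 3.22, and 0 when rows with a side at 0 were set to their bound, against -0.19 over all rows under both rules. Counts were low, with a median mean of 1.02, and 14 rows rested on a single negative-side read.

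The kind of zebrafish transcript record that named a sardine row went with its side. Rows are named either by curated RefSeq records or by records predicted from the genome. Of 72 carrier rows on curated records 15 were called positive and 9 negative (background 19.7% and 21.8%), and 22 (30.6%) had no negative-side read. Of 43 on predicted records 22 were called positive and 0 negative (background 52.8% and 4.12%), and 37 (86.0%) had no negative-side read. The same split ran through the whole table, where 892 of 4517 curated and 1821 of 2199 predicted rows had none. Of the 9 carrier symbols with both kinds of record, 5 had a negative median on curated and a positive one on predicted records (SLC6A6, SLC30A5, SLC35B1, SLC35B4 and SLC6A15). SLC27A2 and SLC2A9 kept to the same side, and SLC44A2 was the other way round. The record type is therefore given below with the sardine rows, and the cause of the split was not tested.

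In mackerel liver few carriers were called. An adjusted p stood beside 119 rows, and 14 were called positive and 6 negative in the authors' deposited table, 16.8% in all, against 14.1% positive, 10.8% negative and 24.8% in all over the whole table. At an adjusted p under 0.1 there were 16 positive and 17 negative calls, and among rows with a mean of at least 10 there were 4 positive and 5 negative. Shares over all mackerel rows at these settings were not taken, so the balance of sides is not read as a result about carriers. In the deposited table SLC4A11, with 0 positive-side and 2 negative-side reads, had an adjusted p of 0.0627. SLC35D2, with 3 positive-side and 0 negative-side reads, had 0.118. The carriers rested on a median of 3 reads over both sides, against 4 for all rows, and 64 of the 193 rows had a single read. They held 1408 positive-side and 1079 negative-side reads, or 3.74 per 1000 positive-side and 3.25 per 1000 negative-side reads of the whole table. An exact two-sided binomial test of the 2 read numbers, adjusted over all rows by the Benjamini-Hochberg method, called 1 carrier row, SLC6A6 on the negative side, where 4.07% of all rows were called. Unadjusted, 5 of the 193 carrier rows had an exact p under 0.05, 4 of them positive. The unadjusted share over all rows was not taken, so this count has no background and is not read as a result. Mackerel folds are given below as the ratio of scaled reads (positive over negative) with its exact 95% interval; the log2 fold changes of the deposited table are smaller in size than the log2 of these ratios in the rows named.

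**Figure D1:**
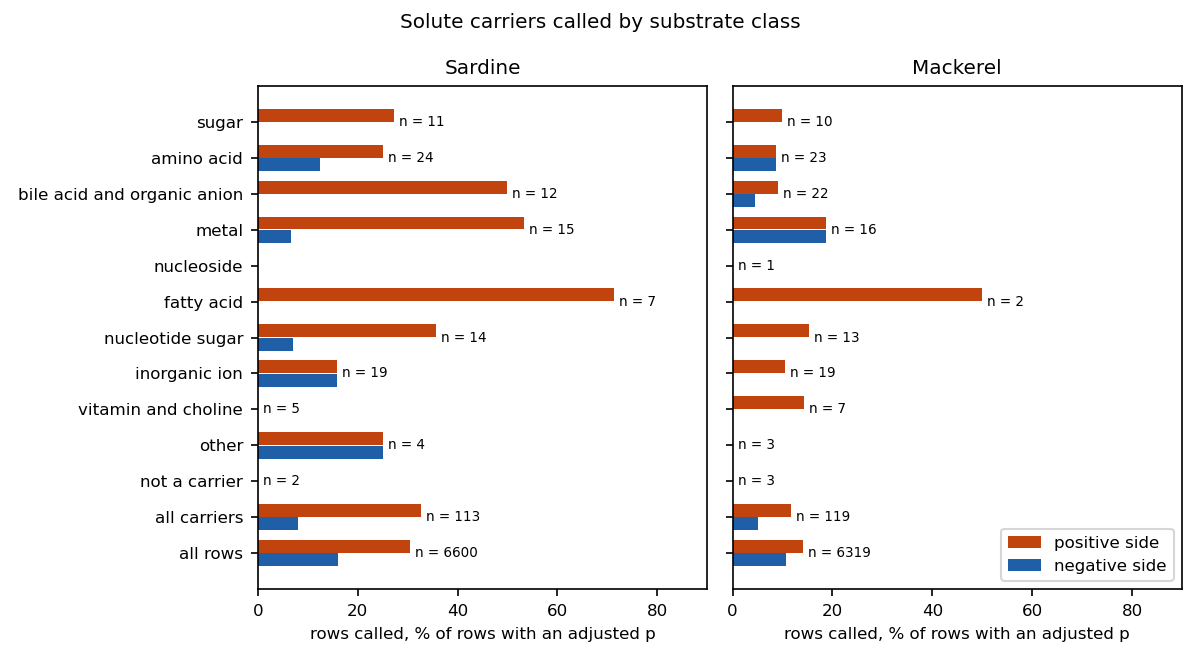
Share of carrier rows called on the positive (red) and negative (blue) side of the deposited tables, as a percentage of rows with an adjusted p (n beside the bars), by substrate class, with all carriers and all rows of each table below. In sardine the fatty acid, metal and organic anion classes had the highest positive shares; in mackerel the shares rest on 1 to 23 rows a class.

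Fatty acid carriers of the SLC27 family, acyl-CoA synthetases that trap fatty acids inside the cell, lay on the positive side in sardine. All 7 rows had a positive fold change, and 5 were called positive, where 30.5% of all sardine rows were. The calls were 3 of 4 rows on curated records (19.7% of all rows) and 2 of 3 on predicted records (52.8% of all rows). These 5 were the rows of SLC27A2, the liver's very-long-chain acyl-CoA synthetase, which also activates bile acids. On curated records, the authors' deposited table put SLC27A2 at log2 fold changes of 2.29 ± 0.65 (SE; adjusted p 0.00304) and 2.79 ± 0.88. The row behind the second value had 10, 15, 3, 3 and 1 reads in the positive-side libraries and 1 on the negative side. The remaining curated row had 13, 34, 9, 0 and 1 positive-side reads against 0 negative-side reads, at least 4.03-fold higher than on the negative side. The reads of that row stood almost wholly in 3 of the 5 positive-side libraries, and 1 library held none. On predicted records the folds were at least 21.5-fold and, with 12, 8, 6, 0 and 0 positive-side reads against 0 negative-side reads, at least 1.85-fold. SLC27A6, a fatty acid carrier best known from mammalian heart, had 15 positive-side reads and 1 negative-side read on a curated record and was not called (deposited log2 fold change 1.78 ± 0.94). The predicted record of SLC27A4, the gut fatty acid carrier of mammals, had 6 positive-side against 0 negative-side reads, and the authors' deposited table gave it an adjusted p of 0.0633.

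In mackerel the better counted SLC27A2 row had 25 positive-side and 17 negative-side reads, a ratio of 1.19 (0.617 to 2.35), and was not called. SLC27A6 had 10 positive-side against 2 negative-side reads and was called positive in the authors' deposited table, at 1.19 ± 0.33 (adjusted p 0.00347). Its read ratio of 4.04 had an interval of 0.862 to 38.0, which takes in no difference. The remaining 3 fatty acid rows held 1 or 2 reads each.

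**Figure D2:**
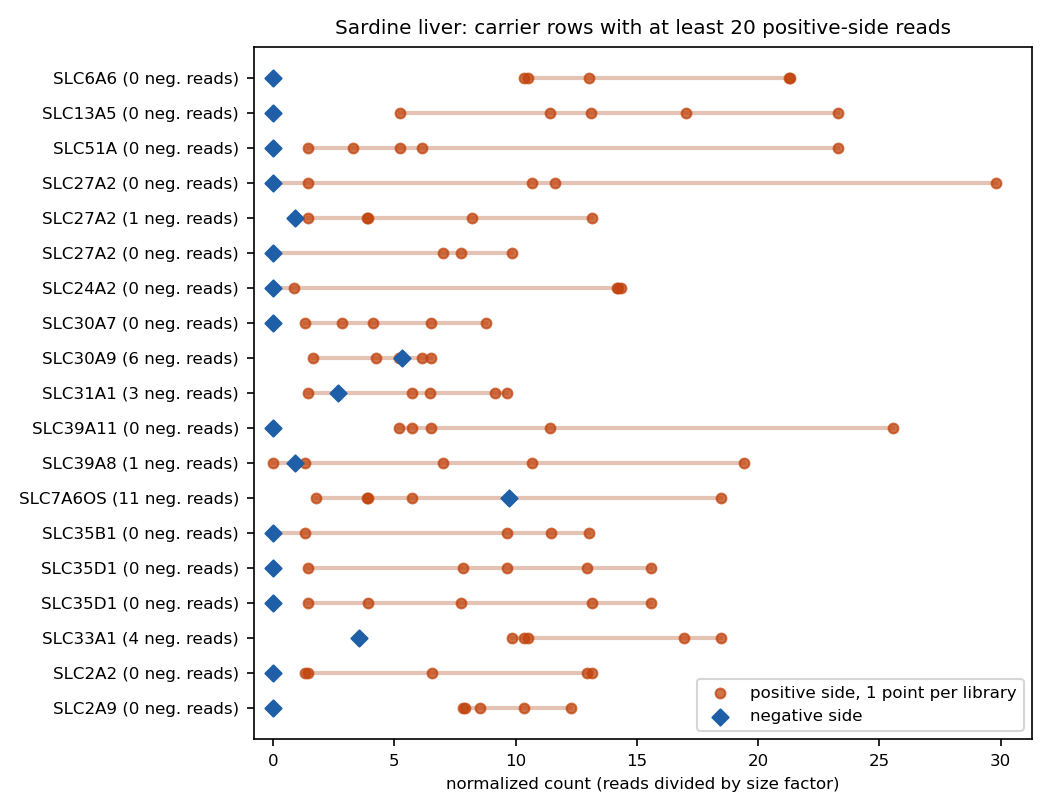
Normalized counts of the 19 sardine carrier rows with at least 20 positive-side reads and a mean of at most 10; red points are the 5 positive-side libraries, the line spans their range, and the blue diamond is the negative side, which is 1 number. The rows were chosen for their positive-side reads, so their place against the negative side follows in part from the choice; 5 rows had a library at 0.

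Of the 11 sugar carrier rows of the sardine 3 were called positive and 0 negative in the authors' deposited table, or 27.3%, near the 30.5% of all rows called positive. SLC2A2 (GLUT2), through which hepatocytes exchange glucose with blood, had 8, 15, 10, 1 and 1 reads in the positive-side libraries of its curated record and 0 on the negative side, at least 2.66-fold higher than on the negative side. Its reads were high in 3 libraries and near 0 in the other two. SLC2A9, the urate carrier of mammals, was more even: its predicted record had 15, 9, 8, 6 and 6 positive-side reads against 0 negative-side reads, at least 3.53-fold, and its curated record 19 positive-side reads against 0 negative-side reads, at least 1.501-fold. The predicted record of SLC2A1 and the curated record of SLC37A4, the glucose-6-phosphate carrier of the endoplasmic reticulum, had 6 positive-side reads and 0 negative-side reads each and were not called.

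In mackerel SLC37A4 was counted better than in sardine and SLC2A1 less well, and none of SLC37A4, SLC2A2 and SLC2A1 was called. SLC37A4 had 42 positive-side and 40 negative-side reads in one row, a ratio of 0.849 (0.538 to 1.34), and 11 positive-side and 5 negative-side reads in another, a ratio of 1.78 (0.570 to 6.53). SLC2A2 had 27 positive-side and 17 negative-side reads, a ratio of 1.28 (0.675 to 2.51). The class had 1 call among 10 rows with an adjusted p, where 24.8% of all mackerel rows were called. This was SLC2A5, the fructose carrier, with 12 positive-side against 4 negative-side reads. Its deposited log2 fold change was 0.88 ± 0.29 (adjusted p 0.0146), and its ratio of 2.43 had an interval of 0.735 to 10.3. SLC2A1 had 1 read in each of its 2 rows.

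Among amino acid carriers the taurine carrier SLC6A6 had the most reads in both species. Taurine is conjugated to bile acids in the liver and is an osmolyte of fish tissues. In sardine its curated row had a mean normalized count of 65.7 and was lower on the positive side, where the authors' deposited table gives -2.17 ± 0.33 (adjusted p 6.23e-09). Its part of that mean was 12.1 from the positive and 53.6 from the negative side. The predicted record of the same symbol had 26, 12, 8, 10 and 15 reads in the positive-side libraries and 0 on the negative side, so that its positive side was at least 5.76-fold higher. The 2 records thus stood on opposite sides, and all 5 libraries lay above the negative side in the second. In mackerel one SLC6A6 row had 71 positive-side and 105 negative-side reads, a ratio of 0.547 (0.399 to 0.746), and was called negative at -0.82 ± 0.24 (adjusted p 0.00422) per the authors' deposited table. This was the carrier row that the exact binomial test also called, at an adjusted p of 0.00296. The other mackerel SLC6A6 row had 35 positive-side and 30 negative-side reads, a ratio of 0.944 (0.563 to 1.59), and was not called.

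The 24 sardine amino acid rows were called positive in 6 and negative in 3, where 30.5% of all sardine rows were called positive and 16.1% negative. SLC1A5, a glutamine carrier, had on a predicted record 2, 6, 5, 4 and 1 positive-side reads against 0 negative-side reads, at least 1.51-fold higher than on the negative side. SLC3A2, the heavy chain that brings several amino acid exchangers to the cell surface, had 8 positive-side reads and 0 negative-side reads on a curated record, too few for a bound above 1, and the authors' deposited table gave it an adjusted p of 0.0491. SLC1A1 and SLC43A2 were called negative on curated records with 0 positive-side and 2 negative-side reads each, which is under the floor. SLC38A3, the glutamine carrier of periportal hepatocytes in mammals, had 3 positive-side reads and 0 negative-side reads on a predicted record and was not called.

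In mackerel SLC38A3 stood on both sides. Of its 3 rows one had 51 positive-side and 27 negative-side reads and was called positive at 0.57 ± 0.21 in the authors' deposited table. A second had 22 positive-side and 28 negative-side reads and was called negative at -0.59 ± 0.20 there, and the last had 11 positive-side and 6 negative-side reads and was not called. The read ratios of the first and second were 1.53 (0.940 to 2.53) and 0.636 (0.347 to 1.15), and both intervals took in no difference. SLC3A2 was called positive with 8 positive-side against 2 negative-side reads, a ratio of 3.24 (0.646 to 31.3). SLC6A13, a GABA and taurine carrier of mammalian liver, had 52 positive-side and 30 negative-side reads and, in the authors' deposited table, an adjusted p of 0.0958. The general amino acid carriers SLC38A2, SLC38A4 and SLC7A2 held 2 to 4 reads each and were not called.

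**Figure D3:**
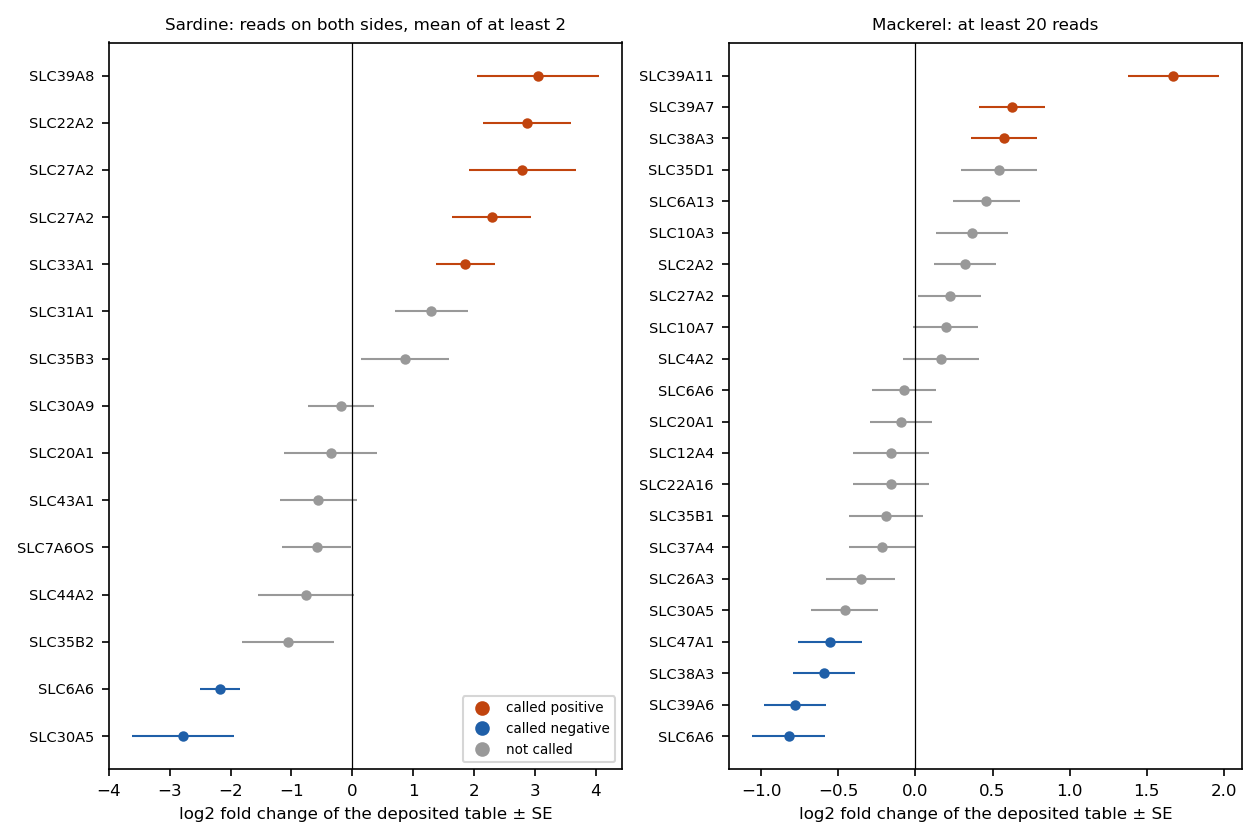
Deposited log2 fold change with its SE for 15 of the 16 sardine carrier rows with reads on both sides and a mean of at least 2 (left) and the 22 mackerel rows with at least 20 reads (right); red rows were called positive, blue negative and grey not called. SLC6A6 lies on the negative side in both panels, at -2.17 in sardine and -0.82 in mackerel, where a second row lies at -0.07.

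Carriers of bile acids and organic ions were called positive in 6 of 12 sardine rows and negative in 0. On curated records 4 of 9 were positive (19.7% of all rows), and on predicted records 2 of 3 (52.8% of all rows). Over both kinds of record 30.5% of all sardine rows were called positive. The class, grouped by family, also holds carriers of organic cations and of citrate. SLC22A2, an organic cation carrier known from mammalian kidney, had a mean of 18.9 on a curated record, and the authors' deposited table gave 2.87 ± 0.72 (adjusted p 0.000843). SLC51A, the alpha chain of the basolateral bile acid exporter, had on a curated record 4, 7, 18, 4 and 1 positive-side reads against 0 negative-side reads, at least 2.96-fold higher than on the negative side. A single library held more reads than the other 4 together. SLC13A5, the citrate carrier of the hepatocyte surface, had 16, 13, 18, 4 and 12 positive-side reads against 0 negative-side reads in one predicted record, at least 5.27-fold, and 11 positive-side reads against 0 negative-side reads in another. The curated record of SLC10A7 had 15 positive-side reads and 0 negative-side reads, at least 1.12-fold higher. On curated records SLCO1C1, a thyroid hormone carrier, had 8 positive-side and 0 negative-side reads and was called, and SLC47A1, the efflux partner of the cation carriers, had 5 positive-side reads and 0 negative-side reads and was not.

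The mackerel rows of this class gave 2 positive and 1 negative call among 22 with an adjusted p. That was 13.6%, against 24.8% of all mackerel rows. SLC13A5 was called positive with 10 positive-side against 2 negative-side reads, at 1.19 ± 0.33 in the authors' deposited table and a ratio of 4.04 (0.862 to 38.0). SLC47A1 was called negative in 1 of its 7 rows, with 16 positive-side and 20 negative-side reads and a ratio of 0.647 (0.314 to 1.31). SLC16A13, of the monocarboxylate carrier family, was called positive on 4 positive-side reads against 0 negative-side reads. The most reads of the class belonged to SLC10A7, with 40 positive-side and 28 negative-side reads and a ratio of 1.16 (0.695 to 1.94). SLCO1C1 and SLCO2B1 held 2 to 4 reads a row and SLC16A1, the lactate carrier, 2 reads. SLC10A1, SLCO1B1, SLCO1B3, SLC51B and SLC22A7, the better known uptake carriers of mammalian hepatocytes and the beta chain of the bile acid exporter, were not analysed here.

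Metal carriers were the sardine class with the most positive calls, 8 of 15 rows, with 1 negative. Of the 8, 7 were among the 9 rows on predicted records, where 52.8% of all sardine rows were called positive, and 1 was among the 6 on curated records (19.7% of all rows). They include the SLC39 (ZIP) family, which brings zinc and other metals into the cytosol, and the SLC30 (ZnT) family, which moves zinc out of it. Of the ZIP carriers, SLC39A11 had on a predicted record 7, 13, 4, 5 and 18 positive-side reads against 0 negative-side reads, at least 4.09-fold higher than on the negative side, and a second predicted record had 7 positive-side reads against 0 negative-side reads. SLC39A8, which also carries manganese, had on a predicted record 13, 8, 15, 1 and 0 positive-side reads and 1 negative-side read, at 3.05 ± 0.999 (adjusted p 0.0114) per the authors' deposited table. SLC39A14, the liver's uptake carrier of manganese and free iron in mammals, had on a predicted record 8 positive-side reads against 0 negative-side reads and, in the authors' deposited table, an adjusted p of 0.0778.

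Of the ZnT carriers of the sardine, SLC30A7 had on a curated record 5, 10, 1, 5 and 2 positive-side reads against 0 negative-side reads, at least 1.77-fold higher than on the negative side. SLC30A5 stood on both sides: its predicted record had 0 negative-side reads, which puts its positive side at least 9.74-fold higher, while its curated record had 4 positive-side and 7 negative-side reads and stood at -2.78 ± 0.84 (adjusted p 0.00590) per the authors' deposited table. SLC30A9, with 21 positive-side and 6 negative-side reads on a curated record, had a deposited log2 fold change of -0.19 ± 0.54 and was not called. The magnesium carriers SLC41A1, SLC41A2 and SLC41A3 were called positive on predicted records at 0 on the negative side. SLC41A1 was at least 16.2-fold higher than on the negative side, SLC41A3 at least 1.24-fold, and SLC41A2 had 9 positive-side reads against 0 negative-side reads. The copper carrier SLC31A1, on a curated record, had 7, 11, 5, 7 and 1 positive-side reads and 3 negative-side reads. Its deposited log2 fold change was 1.30 ± 0.61 and its adjusted p 0.0715, so it was not called.

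In mackerel the metal class had 3 positive and 3 negative calls among 16 rows with an adjusted p, the most calls of any class. That was 37.5% of these rows, against 24.8% of all mackerel rows (14.1% positive and 10.8% negative). By share the fatty acid class stood higher, at 50% of 2 rows. SLC39A11 had the smallest adjusted p of the mackerel carriers, 5.34e-07, with 19 positive-side and 3 negative-side reads and 1.67 ± 0.29 in the authors' deposited table. Its ratio of 5.12 had an interval of 1.51 to 27.0, and the exact test gave an adjusted p of 0.0883. SLC39A7, a zinc carrier of the endoplasmic reticulum, had 51 positive-side and 26 negative-side reads and was called positive at a deposited 0.62 ± 0.21. SLC39A6, of the same subfamily, had 19 positive-side and 28 negative-side reads and was called negative at -0.78 ± 0.20 in the authors' deposited table. Their ratios were 1.59 (0.971 to 2.65) and 0.549 (0.290 to 1.02). SLC30A7, with 7 positive-side and 11 negative-side reads, and SLC41A2, with 3 positive-side and 7 negative-side reads, were called negative, and SLC30A9 was called positive on 4 positive-side reads against 0 negative-side reads. SLC30A5 had 36 positive-side and 41 negative-side reads and an adjusted p of 0.102. SLC39A8 had 6 reads on each side, SLC31A1 had 2 positive-side and 3 negative-side reads, and the iron carriers SLC11A2 and SLC40A1 had from 2 to 11 reads a row; none of these was called.

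**Figure D4:**
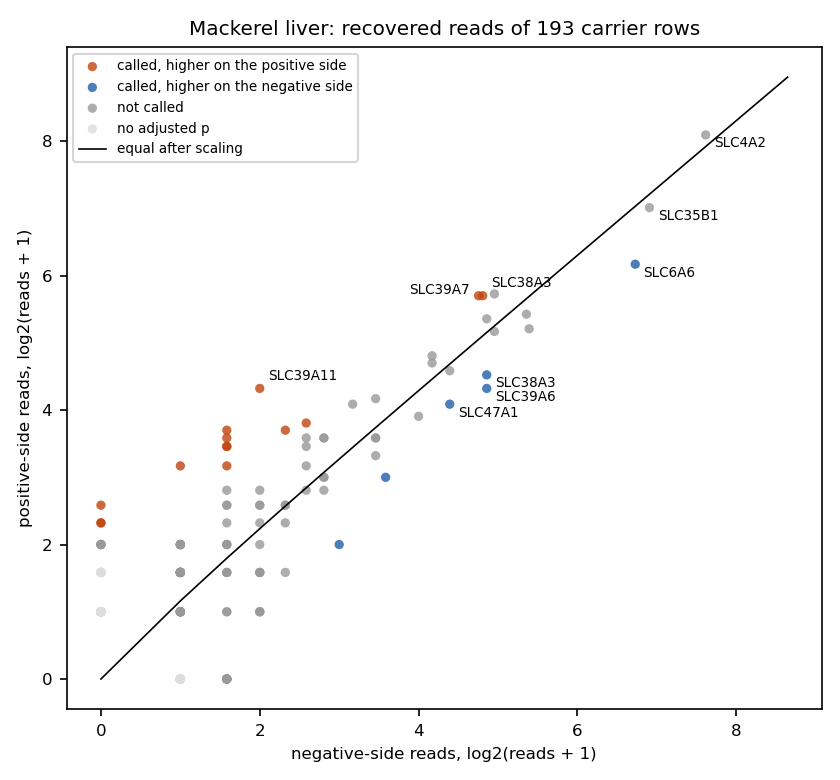
Recovered reads of the 193 mackerel carrier rows, positive side against negative side, both as log2(reads + 1); red and blue rows were called positive and negative in the deposited table, grey rows were not, and the line marks equal levels after scaling. The rows with the most reads, SLC4A2 and SLC35B1, lie close to the line and were not called.

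Inorganic ion carriers of the sardine were called positive in 3 and negative in 3 of 19 rows (all sardine rows: 30.5% and 16.1%). They held the largest difference towards the negative side. SLC8A1, the sodium-calcium exchanger of heart muscle, had 0 positive-side and 44 negative-side reads on one curated record, so that its positive side was at least 59.8-fold lower. A second record had 0 positive-side and 6 negative-side reads, at least 8.16-fold lower, and the other record 0 positive-side reads and 1 negative-side read. These rows, like the curated row of SLC6A6, lay on the side on which 29 of the 33 muscle marker rows were called, and the part of muscle RNA in them was not tested. SLC4A1, the anion exchanger of red cells, had 5 positive-side and 3 negative-side reads on a curated record and was not called, at a deposited -1.29 ± 0.90. SLC24A2, a calcium exchanger known from neurons, had on a predicted record 0, 1, 11, 11 and 10 positive-side reads against 0 negative-side reads, at least 3.29-fold higher. Its reads were near 0 in the libraries given first and second.

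SLC4A2, the anion exchanger that secretes bicarbonate into bile in mammals, had the highest read number of any mackerel carrier, with 272 positive-side and 195 negative-side reads. The ratio was 1.13 (0.935 to 1.36), with an interval that covers counting error only. SLC26A2, a sulfate carrier, was called positive with 12 positive-side against 2 negative-side reads, at 1.40 ± 0.33 (adjusted p 0.000318) per the authors' deposited table and a ratio of 4.85 (1.08 to 44.6). SLC26A3 was called positive in a row of 5 positive-side reads against 0 negative-side reads and not in its other row of 14 positive-side and 15 negative-side reads. The sodium-phosphate carrier SLC20A1 had 23 positive-side and 20 negative-side reads, a ratio of 0.930 (0.489 to 1.79), in mackerel, and 18 positive-side and 5 negative-side reads in sardine, where its deposited log2 fold change was -0.36 ± 0.77. SLC4A1 had 2 positive-side reads and 1 negative-side read in mackerel.

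Carriers of nucleotide sugars (SLC35) feed glycosylation in the Golgi. Of their 14 sardine rows with an adjusted p, 5 were called positive and 1 negative (all sardine rows: 30.5% and 16.1%). The 2 curated records of SLC35D1, which carries UDP-glucuronic acid into the endoplasmic reticulum, had 19, 15, 6, 3 and 1 and 19, 11, 10, 6 and 1 positive-side reads, both against 0 negative-side reads. They were at least 3.15-fold and 3.57-fold higher than on the negative side. Both rows were lowest in the same library. SLC35B1 stood on both sides, with 36 positive-side reads against 0 negative-side reads on its predicted record (at least 2.67-fold higher) and 0 positive-side reads against 11 negative-side reads on its curated record (at least 15.0-fold lower). SLC35A1, the CMP-sialic acid carrier, was called on a predicted record with 7 positive-side reads against 0 negative-side reads. In mackerel SLC35A1 was called positive with 13 positive-side against 5 negative-side reads, a ratio of 2.10 (0.704 to 7.53), and SLC35C2 with 11 positive-side against 2 negative-side reads. SLC35B1 had 128 positive-side and 119 negative-side reads in mackerel, a ratio of 0.870 (0.673 to 1.13), and was not called.

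The remaining classes were small. SLC33A1, the acetyl-CoA carrier of the endoplasmic reticulum, was among the most evenly counted sardine rows. It had 12, 12, 8, 13 and 13 positive-side reads and 4 negative-side reads on a curated record, at 1.86 ± 0.48 (adjusted p 0.00122) per the authors' deposited table. All 5 libraries lay above the negative side. None of the 5 sardine rows of vitamin and choline carriers was called, where 46.5% of all sardine rows were. In mackerel the thiamine carrier SLC19A2 was called positive with 8 positive-side reads against 1 negative-side read. It was the 1 call among 7 mackerel rows of the class with an adjusted p, where 24.8% of all mackerel rows were called. Nucleoside carriers had 0 sardine rows and 2 mackerel rows, SLC29A1 with 0 positive-side reads and 1 negative-side read and SLC29A2 with 2 positive-side reads and 1 negative-side read, neither called.

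The positive-side libraries of the sardine also differed among themselves. Over rows with a mean of at most 10, carriers made up 21.97, 25.04, 20.81, 19.29 and 16.34 of every 1000 reads in the 5 positive-side libraries and 11.44 on the negative side. On curated records alone these shares were 20.75, 25.26, 18.95, 19.42 and 11.72, against 11.37 on the negative side. These shares leave out rows with a mean over 10, among them the curated SLC6A6 row and the SLC8A1 row of 44 negative-side reads. Over rows of every mean the order turned: of every 1000 positive-side scaled reads 2.18 were of carriers, against 2.49 of every 1000 negative-side ones. The shares are descriptive, since 1 number stands for the negative side. Among the 19 rows with at least 20 positive-side reads, 7 were lowest in that same library and 5 each were highest in the libraries given first and second.

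An exact two-sided binomial test of the sardine reads, chosen after the data were seen, covered 108 carrier rows with a mean of at most 10. It called 18, with 14 positive and 4 negative after adjustment over all such rows, where 7.15% of all rows were called positive and 6.57% negative. Among the negative rows were the SLC8A1 row of 6 reads, the curated SLC30A5 record and the curated SLC35B1 record. Some rows given above with a bound over 1-fold were not called by it. Among them were SLC30A7 (adjusted p of the exact test 0.0852), SLC1A5 and the curated SLC2A9 record (0.152 each), and SLC10A7 and SLC41A3 (0.192 each). The test compares 2 read totals, not 2 sets of fish.

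Of the 57 symbols that both tables hold, 24 were called in sardine and 13 in mackerel, and 7 in both. These 7 were 20.6% of the 34 symbols called in sardine and 36.8% of the 19 called in mackerel. Over all symbols the 511 called in both tables were 20.2% of those called in sardine and 34.9% of those called in mackerel, so the carriers' overlap was near that of the tables. SLC39A11, SLC13A5, SLC3A2 and SLC35A1 were positive in both tables. SLC30A7 and SLC41A2 were positive in sardine and negative in mackerel. SLC6A6 was negative in mackerel and, in sardine, negative on its curated and positive on its predicted record. The sardine rows of the 6 symbols other than SLC6A6 were all at 0 on the negative side. Since the numerator of each table is unrecorded, the same sign in both does not show the same response, and no test of the difference between species was possible from these tables.

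**Figure D5:**
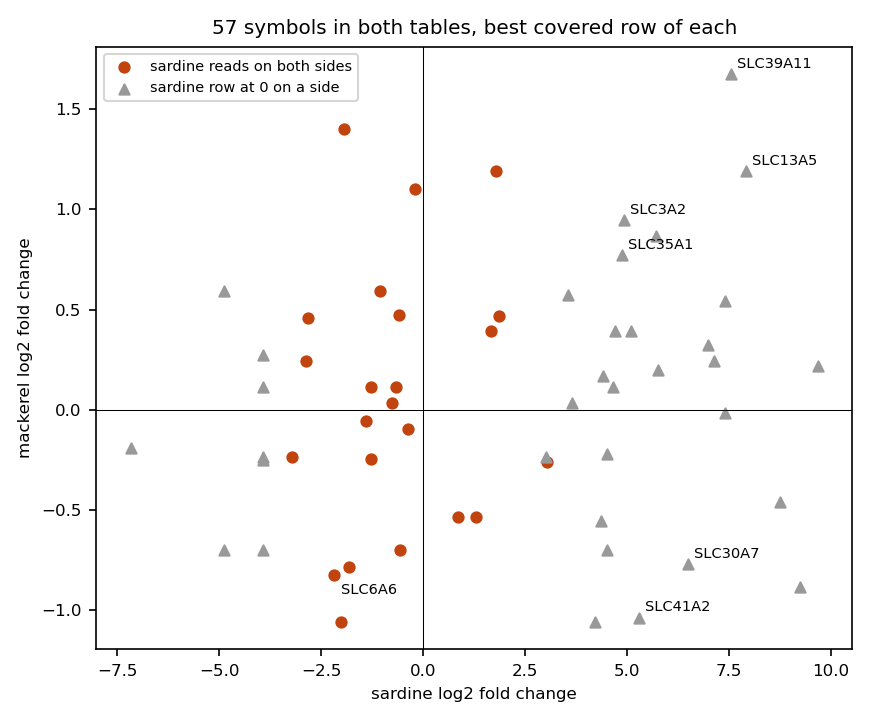
Log2 fold change in the deposited sardine table (x) and mackerel table (y) of the 57 carrier symbols in both, taking the row with the highest mean of each; red circles are sardine rows with reads on both sides, grey triangles sardine rows at 0 on a side, whose fold change is no estimate of size, and the 7 symbols called in both are named. SLC6A6 is the 1 named symbol with sardine reads on both sides.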

How the data were processed

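The authors deposited 1 DESeq2 result table per species, comparing exposed with control livers. Its columns, per the file headers, hold a signal (the mean normalized count over the libraries), a log2 fold change with its SE, a score (the Wald statistic) and a p-value, raw and adjusted. CASAVA 1.8, DESeq2 and the zebrafish build GRCz10 are named in the submitters' processing notes; for the aligner, counter, filters and version of DESeq2, nothing is stated (not given in the sources used here). Sardine rows carry zebrafish RefSeq transcripts and mackerel rows fugu gene models, each with the human symbol printed here, so near-identical paralogues may share reads.

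No values per fish were at hand, so depth per fish is unknown and the authors' test, adjusted over all rows, is the test reported. Rows of SLC30A9 and SLC16A13, with the same reads in mackerel, carry the same SE, so that SE follows the reads. Read numbers were recovered from the deposited mean normalized counts. In mackerel each mean was 0.455 times the positive-side reads plus 0.563 times the negative-side reads plus 1.66 (9191 of 9191 rows; largest residual 3.42e-06), and an exact test used the expected positive share of 55.3%. In sardine 5122 of 5123 rows with a mean of at most 5 and 5735 of 5738 up to 10 were solved, with a negative-side weight of 0.443; sardine folds above that mean rest on the deposited fold change. In a simulation 100% of 8057 mackerel and 99.98% of 4714 sardine rows were found again. The simulated sardine rows had a mean of at most 5, and recovery at means from 5 to 10 was not simulated. The exact test called 31 of 200 rows changed 4-fold in mackerel (23 of 23 with at least 50 reads, and 1 of 8991 unchanged) and 5 of 200 in sardine (0 of 5535 unchanged). The simulated reads held counting error only, which is what the test assumes. The unchanged rows therefore cannot give the rate of false calls in data whose libraries or fish differ.

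Members, substrate classes, marker lists and named genes were chosen with earlier results of these data known. Named were called rows with the largest folds at a mean of at least 10 (up to 8 a side), the 8 highest means per species, symbols called in both tables and a list of textbook liver carriers; the others in the text were chosen after their values were seen. Mackerel rows named under the mean of 10 are among these. Some genes in the counts, 1 of them left out of the plot of fold changes, are not reported here by name. Python 3.11.15, numpy 2.4.6, scipy 1.17.1 and pandas 2.3.3 were used. No sequence is shown, since no reference was used here.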

Additional observations from a re-analysis of the deposited data

Results flagged for a closer look

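Among the 19 sardine rows with at least 20 positive-side reads, 2 had a positive-side library far from the other 4. For SLC51A 1 library had a normalized count of 23.3 and the other 4 between 1.42 and 6.14, so the gap to the next library was 0.784 of the whole range, against a critical value of 0.71 for 5 values. For SLC7A6OS, which is not a carrier, the highest library had 18.5 and the others 1.75 to 5.74, a gap of 0.762 of the range. The 2 high libraries were different ones. For normally distributed values chance alone would put about 1 row in 20 past this value. The rate for low read counts such as these was not tested.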

How the results depend on the processing

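The sardine count of 46 called carriers was 85 at an adjusted p under 0.1, 27 under 0.01, 7 at a mean of at least 10, 8 with reads on both sides, 24 on curated records and 18 by the exact test; it was 32 with 1 row per symbol, 51 after recentring at the median of all rows (-0.19) and 46 without the symbols that are not carriers. The mackerel count of 20 was 33 under 0.1 (16 positive, 17 negative), 8 under 0.01, 9 at a mean of at least 10 (4 positive, 5 negative) and 1 by the exact test, and stayed between 17 and 20 under the other settings. The 7 symbols called in both tables became 14 under 0.1, 1 at a mean of at least 10, 1 with reads on both sides and 3 on curated sardine records, and were 7 with 1 row per symbol; SLC6A6 was the symbol left at a mean of at least 10 and with reads on both sides. Restrictions leave fewer rows; the cause of the lower exact counts was not tested. The exact sardine test, the carriers-only count and the last 2 restrictions of the shared symbols were chosen after seeing the data. Under recentring the sign held for the rows named by rule. It turned in 2 sardine carrier rows, and 3 mackerel carrier rows that stood at the median went to 0, none of them called. SLC30A9, at -0.1934 beside the sardine median of -0.1935, was among the sardine rows that turned. SLC31A1 and SLC27A4 of the sardine passed the threshold and the positive SLC38A3 row of the mackerel no longer did. By the exact test 8 of the 17 called sardine rows and 12 of the 13 called mackerel rows among those named by rule and tested lost their call; SLC6A6 was the mackerel row that kept it. No paired analysis was possible because the tables hold no values per fish and the labels give fish of the 2 groups no shared numbers; leaving out single fish was not possible either.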
